A study of Mus musculus with 12 samples.

Results

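Single epidermal cells that did not stain for the surface protein Sca-1 were sorted into 1 plate, and the ribosome footprints of each well were counted per gene. Footprints are the mRNA fragments left under ribosomes after digestion, so a count rises with more mRNA and with more ribosomes on it. All wells of that plate with at least 100 counts were kept, which left 52 of 54 wells. The other 2 wells had 76 and 96 counts. Their comparison group was drawn from 1906 wells of at least 100 counts on the 10 plates filled with live epidermal cells without a Sca-1 gate. For each Sca-1-negative well the 5 ungated wells nearest in total count were taken, which gave 260 matched wells with a largest gap of 0.04 on the log2 scale.

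All cells came from the back skin of female C57BL/6 mice that received cycloheximide, which stalls ribosomes, through the tail vein shortly before death. Epidermis was freed with trypsin, and live single cells were sorted. The Sca-1-negative plate carries cells of a young and an old sort, labelled P57 and P679 for their postnatal days, and was stained with an antibody against Ly-6A/E. Its stated purpose was to enrich for cells other than stem cells. The ages occupy different rows of the plate, but the deposited columns are named by cell index and not by row, so the ages could not be separated here and the plate is 1 sample. The ungated animals are called P57, P59 and P60 (young) and P662, P722 and P758 (old) after their postnatal days. Plates that share an age and a day are assumed to come from 1 animal. By that assumption the young cells of the Sca-1-negative plate and the ungated animal P57, with 3 matched wells, may come from the same animal, while no ungated plate carries P679. Gate, plate, sort and animals cannot be told apart, and the plate has no replicate.

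The 52 wells held 17377 counts, with a median of 201 per well and a range from 101 to 2241. Only 8 wells reached 500 counts, and the 2 deepest wells gave 24.0% of all counts. The matched wells gave 526 counts from 3 wells in P57, 2407 from 16 in P59 and 31790 from 76 in P60. In old animals they gave 19361 counts from 79 wells in P662, 2252 from 10 in P722 and 30430 from 76 in P758. A single count is therefore worth 57.5 CPM (counts scaled to a common total per sample) on the plate, but 1901 CPM in P57. Intervals are exact (Clopper-Pearson for shares, Poisson for counts) at 95% and cover counting error only, as do limits set by 3 counts. Of the 54 cell indices on the plate, 50 recur on the ungated plate Young3 and 1 on Young10. Whether the wells share cells with those plates was not tested.

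Sca-1 is the product of Ly6a and marks most basal keratinocytes between the follicles and in the infundibulum, while bulge stem cells carry little of it. Langerhans cells are the resident dendritic cells of the epidermis. They present peptides on MHC class II, whose chains are coded by H2-Aa, H2-Ab1 and H2-Eb1 and are escorted by the invariant chain Cd74. Dendritic epidermal T cells form the other resident immune population. Krt79 and Krt17 mark the upper follicle and its duct-like canal, Postn is a matrix protein made by outer bulge cells and by fibroblasts, Krt5 and Krt14 form the keratin pair of basal cells, and Krt1 and Krt10 that of spinous cells.

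Ly6a itself had 0 counts on the plate, which allows a level of up to 173 CPM. Among matched ungated wells it had 1 count in P59, 3 in P60 and 7 in P758, and 0 in P57, P662 and P722. At the pooled level of those wells 2.20 counts would fall on the plate, so that a lower level of Ly6a was not detectable at this depth. Ly6e, another gene of the Ly6 family, had 0 counts where 1.20 would fall. Ly6d, a further member, had 6 counts where 18.6 would fall, with a fitted log2 difference of -1.47 that was not called (adjusted p = 0.775, edgeR). The 13 genes of the Ly6 family list took 0.0806% of the plate's counts (0.0441 to 0.135%), inside the range from 0 in P57 to 0.415% in P59. The 0 of P57 rests on 526 counts of all genes. The other animals lay above the plate's interval, with 0.154% in P60, 0.160% in P662, 0.164% in P758 and 0.400% in P722.

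Each well was assigned by its own counts of 6 genes. A well with at least 3 counts of Cd74 was placed in the Cd74 class. The remaining wells were taken in order by at least 3 counts of Ptprc (CD45), Postn or Krt79, by Krt10 above Krt5, and by Krt5. Of the 52 wells, 9 fell in the Cd74 class, 9 in the Postn class, 5 in the Krt79 class, 3 in the Krt10 class and 3 in the Krt5 class. None was assigned by Ptprc alone, and 23 reached no threshold. No well had 3 counts of more than 1 of Cd74, Ptprc, Postn and Krt79, so that the order of those 4 genes decided no well. Krt10 reached 3 counts in 3 of the 5 Krt79 wells, and Krt5 in 4 of the 9 Postn wells.

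**Figure D1:**
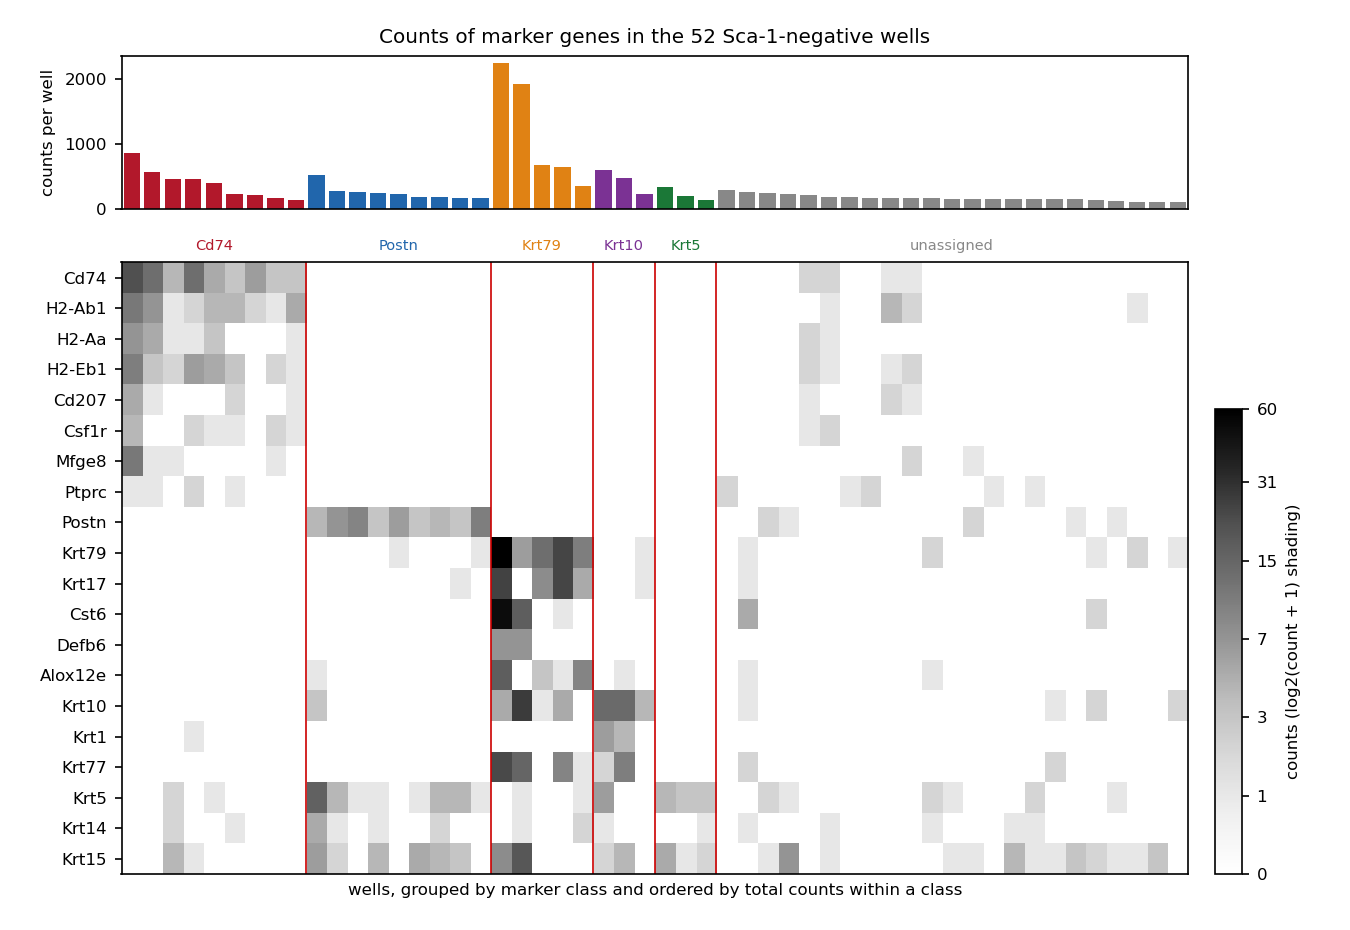
Counts of 20 marker genes (lower panel, grey shade on a log2(count + 1) scale) in each of the 52 Sca-1-negative wells, with the total count per well above (bars). Wells are grouped by class and ordered by depth within it. MHC class II genes fill the 9 Cd74 wells and 4 unassigned wells, and Krt79, Krt17 and Cst6 are concentrated in 5 wells that include the 2 deepest.

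Cd74 wells made up 17.3% of the plate (9 of 52, 8.23 to 30.3%). Of the matched ungated wells 0.769% were in that class (2 of 260), both from P758, where they were 2.63% of 76 wells. P57, P59, P60, P662 and P722 had 0, which by the intervals allows up to 4.74% in P60 and 4.56% in P662. In P57, P59 and P722, with 3, 16 and 10 wells, it allows up to 70.8%, 20.6% and 30.8%. The share of the plate lay above that of each animal, but P57, P59 and P722 have too few wells to set a lower limit than the plate's share. Under 6 other settings of the class rule or the matching it ran from 5.77 to 25%, beside 0 to 0.839% in ungated wells. The lowest of these came from thinning every well to 100 counts, where 3 wells of the plate and none of the 260 kept 3 counts of Cd74.

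Postn wells made up 17.3% of the plate as well (8.23 to 30.3%). They were 3.95% of the matched wells of P60, 1.27% of P662 and 5.26% of P758, and 0 in the other animals, so that the plate lay above all 6. The zeros of P57, P59 and P722 again allow up to 70.8%, 20.6% and 30.8%. Over the same settings the plate had 7.69 to 21.2% beside 0 to 10.0% in ungated wells. Krt79 wells were 9.62% (3.20 to 21.0%) of the plate. That lay between the 2.63% of P60 and the 33.3% of P57, the latter being 1 of only 3 wells.

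Krt5 wells were 5.77% of the plate (3 of 52, 1.21 to 15.9%), below all 6 animals, which ran from 30.0% in P722 to 66.7% in P57. In P60, the deepest young animal, they were 50.0% and in P758 44.7%. Krt10 wells were also 5.77%, inside a range from 0 in P57 and P59 to 30.0% in P722 and below P60 (10.5%), P662 (19.0%) and P758 (23.7%). No test of a share was made, since 1 plate against 6 animals cannot reach an exact permutation p under 0.143.

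**Figure D2:**
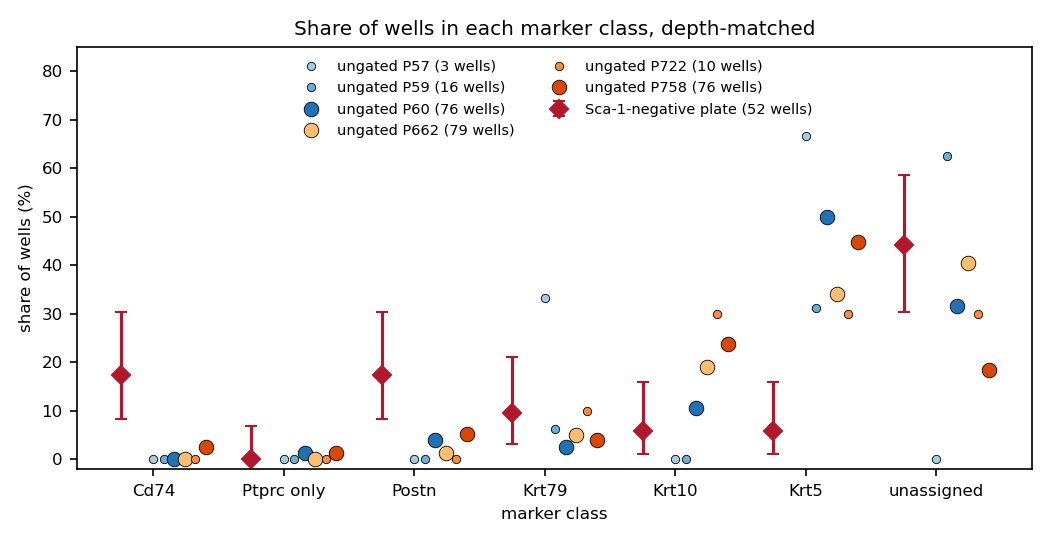
Share of wells (%) in each marker class for the Sca-1-negative plate (diamonds, exact 95% interval) and the depth-matched wells of each ungated animal (circles, large for the 3 animals with over 70 wells). The plate sits above every animal for Cd74 and Postn wells, at 17.3% each, and below every animal for Krt5 wells, at 5.77%. The Krt5 class leaves out wells taken first by another marker. Intervals of the animals are not drawn, and those of P57, P59 and P722 include 17.3% for Cd74 and Postn wells.

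The 9 Cd74 wells held between 139 and 865 counts, and Cd74 had 21, 13, 13, 6, 5, 4, 3, 3 and 3 counts in them. Since Cd74 set the class, the other 18 genes of the MHC class II and Langerhans list show more about these wells. Every Cd74 well had at least 3 counts of those genes, with a median of 10 and a highest of 51. H2-Ab1 was present in all 9 wells, H2-Eb1 in 8, H2-Aa in 6 and Csf1r, a growth factor receptor of myeloid cells, in 6. Ciita, the master regulator of MHC class II transcription, was present in 5. Cd207, which codes for langerin of the Birbeck granules of Langerhans cells, was present in 4. Mfge8 was found in 4 wells and Epcam, an adhesion molecule of Langerhans cells, in 2.

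The richest of these wells, at 865 counts, had 11 counts of H2-Ab1, 7 of H2-Aa, 10 of H2-Eb1, 5 of Cd207, 4 of Csf1r and 11 of Mfge8. A well of 461 counts had 4 counts of Cd74 with 1, 1 and 2 of the class II chains, beside 4 of Krt15, 2 of Krt5 and 2 of Krt14. It is the only Cd74 well with more than 1 count of Krt5. Its basal list genes other than Krt5 summed to 23 counts, and its MHC class II list genes other than Cd74 to 5. A further 4 wells had 1 or 2 counts of Cd74 and fell outside the class. These had 7, 7, 8 and 10 counts of the other list genes, as many as several wells inside it, and 3 of them had Cd207. Among the 39 wells with no Cd74 count, the other list genes summed to 8 counts, 0 in the median well and 3 at most. In all, 13 of 52 wells (25%) had a Cd74 count, against 6 of 260 matched wells (2.31%). Of the 4 matched wells with 1 or 2 counts of Cd74, 1 had a count of another list gene.

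**Figure D3:**
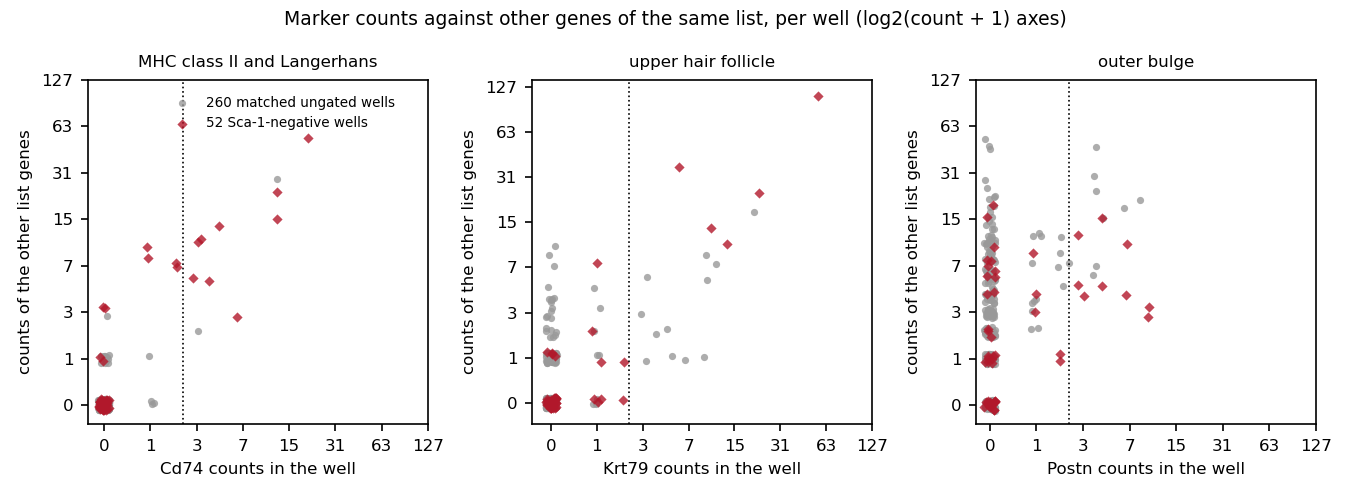
Counts per well of Cd74, Krt79 and Postn (horizontal axes) against the summed counts of the other genes of the list each belongs to (vertical axes), both on log2(count + 1) axes with slight jitter. Diamonds are the 52 Sca-1-negative wells, grey circles the 260 matched wells, and the dotted line marks 3 counts. The 4 wells of the plate just left of the line in the Cd74 panel have 7 to 10 counts of other list genes, while the Postn panel shows outer bulge genes in wells with and without Postn.

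Keratins were scarce in the Cd74 wells. Krt79, Krt17, Postn, Krt10 and Cst6 had 0 counts there, and Krt5 and Krt14 had 3 each. Among other genes of the basal list, Dst had 16 counts in 5 of the 9 wells, Krt15 5, Thbs1 4 and Col17a1 3. Keratin genes took 0.344% of the counts of the Cd74 wells, and 5 of 9 wells had none. In the 3 deep groups of matched wells keratins took 4.61% in P60, 6.83% in P662 and 5.27% in P758. Ptprc was seen in 4 of the 9 Cd74 wells, at 1 or 2 counts each, so that it never reached the threshold. Other pan-immune genes in the class were Lcp1, an actin-bundling protein of leukocytes, with 11 of the plate's 13 counts, Cytip, a leukocyte adhesion regulator, with all 6, and Coro1a with 4 of 5. The macrophage, neutrophil and mast cell list had 2 counts on the whole plate, both of Adgre1 and in 2 Cd74 wells. Its share of 0.0115% lay above all 6 animals, of which the highest, P662, had 0.00517% from 1 count. Lyz2, Ccr7 and Il1b, genes of other or activated myeloid cells, had 0 counts on the plate. They had 0 in the matched wells too, so their absence says nothing of the cells present.

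The ungated plates held 16 Cd74 wells at any depth, 9 in P60 and 7 in P758. These were deeper, with a median of 1015 counts against 389 on the plate, so that their values stand side by side without a match on depth. Cd74 stood at 20361 CPM in the plate's class, at 15595 in that of P60 and at 15816 in that of P758. H2-Ab1 had 10611 CPM on the plate and 6391 and 4218 in those animals. Krt5 had 860 CPM (177 to 2514) on the plate but 19315 in P60 and 17292 in P758. Krt14 had 860 CPM against 8298 and 14235. The keratin counts of the ungated Cd74 wells came mainly from 7 of the 16, 3 in P60 and 4 in P758, in which keratins took 2.74 to 10.2% of counts. In the other 9 they took 0 to 0.712%, beside 0 to 1.74% in the plate's Cd74 wells. The median well stood at 0 on the plate and at 0.576% among the ungated ones. The part of depth in that gap was not tested.

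Over the whole plate the genes were compared with the 6 animals by edgeR's quasi-likelihood test on counts summed per animal. The lone plate was assumed to vary like the ungated animals. Of the genes tested, 19 were higher on the plate at an adjusted p under 0.05, which is 2.63%, and 0 (0%) were lower. The other 703 were not called. On simulated counts the test recovered large increases but no decrease, so that a count of 0 lower carries little weight here and for the gene lists. There were 89 genes at an unadjusted p under 0.05 in either direction. DESeq2 called 4 higher and 0 lower, with 35 at an unadjusted p under 0.05. The number of calls moved with the animals: without P60 the test called 6 genes, without P662 5 and without P758 5, each out of 343 to 369 tested. In each of these fits only 6 of the 19 genes still passed the filter and were tested, and the calls were among those 6. Without P57 it called 21, of which 18 were among the 19. With only the 3 animals of at least 10000 matched counts it called 0, with 91 at an unadjusted p under 0.05.

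A gene could enter the test by reaching 575 CPM in a single sample, with 15 counts in all. Of the 19 called genes 18 did so on the plate alone, as did 59 of all genes tested, so that their place above all 6 animals was set by the filter. Among the 663 genes that entered otherwise 1 was called, Cst6. Besides the plate only P57 reached 575 CPM for it, at 3802 CPM from 2 counts. The plate lay above all 6 animals for Cst6 too, but its interval of 3395 to 5410 CPM includes P57. Of all genes tested 11.6% lay above all 6 animals. A filter on at least 15 counts summed over all 7 samples, the plate among them, was added after seeing the data. Genes high on the plate could still pass it through the plate. Tnfaip2 had 0 counts in the matched wells and H2-Eb1 3, while Cd74 had 19 and Cst6 15. The calls under this filter are therefore no independent check. It left 1575 genes, of which 13 were called higher and 0 lower (122 at an unadjusted p under 0.05). All 13 were among the 19, and Dennd4a, Fosl2, Vim, Lcp1, Defb6 and Psapl1 lost the call. With no filter beyond 1 count the calls were H2-Eb1 and Tnfaip2 alone.

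By the place of their counts the 19 called genes fall into groups. For 15 genes over 50% of the counts lay in the 9 Cd74 wells, which held 20.1% of the plate's counts. Cd74 is 1 of the 15 and set the class itself, with 71 of its 77 counts there. All 15 entered the test through the plate alone. The share of all tested genes with over 50% of their counts in those wells was not computed. For Cst6, Defb6 and Psapl1 over 50% lay in the 5 Krt79 wells. Hmcn1 was spread over Postn and unassigned wells. With the Cd74 wells left out, 4 genes were called, namely Cst6, Defb6, Psapl1 and Hmcn1. Only these 4 of the 19 still passed the filter, so the loss of the other calls was set by leaving out the wells that held their counts.

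The first group held the class II chains and their escort. Cd74 (chromosome 18, 60803849 to 60812652, GRCm38.p6) had 77 counts on the plate, or 4431 CPM, against 1 count in P60, 1 in P662, 17 in P758 and 0 in P57, P59 and P722. The highest animal, P758, stood at 559 CPM. This is under the 575 CPM of the filter, so Cd74 entered the test through the plate alone and the lack of overlap was set in advance. The fitted log2 difference was 4.63 (SE 0.925, adjusted p = 8.29e-05), and it was called in 14 of 18 other settings that tested it.

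H2-Eb1 (chromosome 17, 34305867 to 34316674), a class II beta chain, had 38 counts or 2187 CPM, against 3 counts in P758 and 0 in the other animals. Its log2 difference was 5.83 (SE 0.885, adjusted p = 3.86e-08). H2-Ab1 (chromosome 17, 34263227 to 34269418), the beta chain of the other class II molecule, had 45 counts or 2590 CPM, against 1 in P662, 6 in P758 and 0 in the others. It differed by 5.04 (SE 0.809, adjusted p = 1.23e-07). H2-Aa (chromosome 17, 34282744 to 34287823), its alpha chain, had 21 counts or 1208 CPM, against 1 in P60, 6 in P758 and 0 elsewhere, a log2 difference of 3.94 (SE 0.795, adjusted p = 8.72e-05). In the matched wells the counts of these 3 chains outside the plate thus came mainly from P758. In the ungated Cd74 wells at any depth P60 had more raw counts of them than P758, with 134 and 40 of H2-Ab1, 93 and 27 of H2-Aa and 93 and 36 of H2-Eb1. These counts are not scaled to total counts, and P60 had more such wells. A single P60 well of 3371 counts held 253 counts of the list genes other than Cd74, the most of any ungated Cd74 well.

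The promoters of H2-Aa and H2-Eb1 are shown because these chains moved together and class II promoters share a known upstream module that ends in an inverted CCAAT box. Printed are the 100 bases before the start of each gene, 5′ to 3′ on the gene's strand, from RefSeq on GRCm38.p6, with capitals for each ATTGG or CCAAT.
H2-Aa, chr17:34287824-34287923, minus strand: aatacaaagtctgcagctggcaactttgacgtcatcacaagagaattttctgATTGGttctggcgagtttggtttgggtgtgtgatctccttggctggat
H2-Eb1, chr17:34305767-34305866, plus strand: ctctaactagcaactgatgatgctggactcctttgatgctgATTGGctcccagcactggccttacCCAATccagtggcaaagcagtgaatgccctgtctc
The letters ATTGG begin 48 bases before the start in H2-Aa and 59 in H2-Eb1, and H2-Eb1 has CCAAT at 35 bases as well. ATTGG or its reverse complement CCAAT occurs in the same window in 18.9% of 32851 RefSeq promoters, and in 3 of 12 promoters of the list genes found there. The match describes letters and says nothing of binding.

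Csf1r (chromosome 18, 61105572 to 61131139) had 14 counts on the plate against 5 in P758 and 0 in the other animals, a log2 difference of 3.77 (SE 0.824, adjusted p = 0.000359). Mfge8 (chromosome 7, 79133768 to 79149060), which codes for a secreted bridge between dying cells and phagocytes, had 17 counts against 1 in P60 and 1 in P758. It differed by 5.10 (SE 0.886, adjusted p = 1.65e-06). One well held 11 of its 17 counts. Cd207 had 13 counts in 7 wells, against 1 in P758 and 0 in the other animals, and was too low to enter the test. Of the 19 list genes 7 were tested, and 6 of them were called higher. All 6 entered the test through the plate alone, so no median is given and the count supports nothing about the list. The seventh, Epcam, had 11 counts and a log2 difference of 2.48 (adjusted p = 0.0838), and 6 of its counts lay in Krt79 wells. The list took 1.46% of the plate's counts (1.29 to 1.65%), above the 0.380% of P57 (2 counts) and the 0.164% of P758.

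Tnfaip2 (chromosome 12, 111442450 to 111455018), a gene induced by tumour necrosis factor, had 16 counts on the plate and 0 in all 260 matched wells. Against 3 counts over the pooled matched wells its 921 CPM (526 to 1495) on the plate stood 26.6-fold higher. That ratio leaves out the plate's own counting error. The adjusted p was 5.11e-08 (edgeR), and Tnfaip2 was called in 12 of 13 other settings that tested it. The counts came from 3 Cd74 wells, 11 of them from 1. In the deeper ungated Cd74 wells it stood at 572 CPM in P60 and 105 in P758, beside 4588 CPM (2623 to 7451) in the Cd74 wells of the plate.

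A set of less known companions of the class II genes was called as well. Fmnl1 (chromosome 11, 103171004 to 103198902), a leukocyte formin that shapes actin, had 13 counts against 1 in P60 and 2 in P758, with a log2 difference of 4.27 (SE 0.882). Tbc1d4 (chromosome 14, 101442360 to 101609281), a Rab GTPase-activating protein, had 14 counts against 2, 1 and 1 in P60, P662 and P758, a difference of 4.04 (SE 0.845). Rasgef1b (chromosome 5, 99217420 to 99252927), a guanine nucleotide exchange factor, had 17 counts against 1, 4, 2 and 1 in P59, P60, P662 and P758, a difference of 3.42 (SE 0.800). Cacna1e (chromosome 1, 154390806 to 154884785), a subunit of a voltage-gated calcium channel, had 16 counts against 1, 1 and 7 in P60, P662 and P758, a difference of 3.22 (SE 0.785). Each of these had 0 counts in the animals not listed and lay mainly in Cd74 wells, from 76.9% of the counts for Fmnl1 to 93.8% for Cacna1e.

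Dennd4a (chromosome 9, 64806124 to 64919667), a Rab exchange factor, differed by 3.00 (SE 0.829, 11 counts in 10 wells). Fosl2 (chromosome 5, 32136472 to 32157840), a member of the AP-1 transcription factor family, differed by 2.82 (SE 0.819), with 6 of its 11 counts in Cd74 wells and 5 in Krt79 wells. Vim, the intermediate filament of mesenchymal cells and leukocytes, differed by 2.76 with 13 of 18 counts in Cd74 wells, and Lcp1 by 2.67 with 11 of 13. Calls were lost in many of the other settings that tested a gene: Fosl2 was called in 1 of 10, Defb6 and Psapl1, both described with the Krt79 wells, in 3 of 13, Lcp1 in 4 of 11, Vim in 6 of 16 and Dennd4a in 5 of 10. Vim belongs to the fibroblast list. Of its other genes Postn had 56 counts on the plate, Gsn 39, Col6a1 3, Col6a2 2, Col1a2 1 and Fbln1 1. Col1a1 had 0 where 2.00 would fall, Col3a1 0 where 1.40 would, Dcn 0 where 0.80 would and Lum 0 where 0.20 would. Pdgfra had 0 on the plate and in all matched wells. At this depth these zeros decide nothing.

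**Figure D4:**
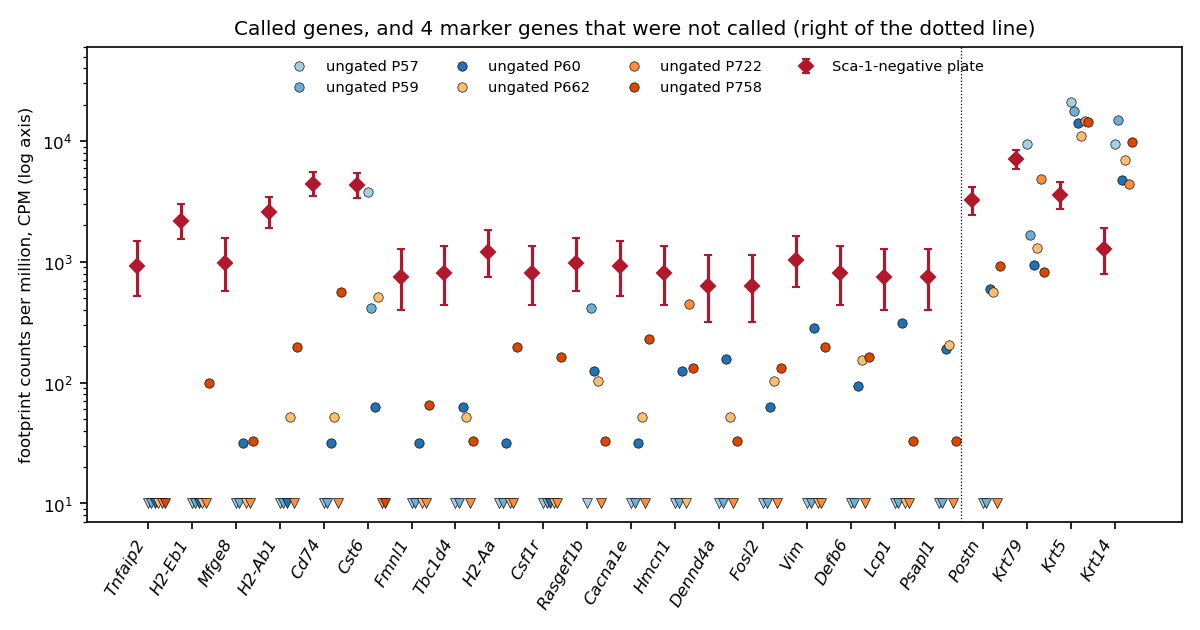
Footprint CPM (log axis) of the 19 called genes, in order of fitted difference, and of 4 marker genes that were not called (right of the dotted line). Diamonds are the Sca-1-negative plate with its exact 95% counting interval, circles the matched wells of each ungated animal, and triangles at the lower edge stand for 0 counts. The plate lies above all 6 animals for each called gene, which the filter fixed for 18 of the 19, and below all 6 for Krt5 and Krt14.

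The 5 Krt79 wells had 2241, 1922, 675, 643 and 349 counts and together gave 33.6% of the plate's counts. Krt79 had 60, 6, 13, 24 and 10 counts in them, in that order. The lowest value inside the class was 6, and the nearest wells outside it were 2 with 2 counts. Every Krt79 well had at least 11 counts of the other 12 upper hair follicle genes. Krt17 had 25, 0, 8, 24 and 5 counts, and Alox12e, a lipoxygenase, had 17, 0, 3, 1 and 9. Cst6, an inhibitor of cathepsins, had 50 counts in the deepest well, 17 in the next, 1 in the well of 643 counts and 0 in the others. Defb6, a beta-defensin, had 7 counts in each of the 2 deepest wells and 0 in all others on the plate. The well of 1922 counts, with 0 counts of Krt17, had 27 of Krt10 and 19 of Krt15 and so differed from the rest of its class. Gata6, a transcription factor of the upper follicle, had 3 counts, all in 1 Krt79 well.

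Cst6 (chromosome 19, 5344705 to 5349574) had 75 counts on the plate, or 4316 CPM, against 2 in P57, 1 in P59, 2 in P60, 10 in P662 and 0 in P722 and P758. It rose by 4.47 on the log2 scale (SE 0.960, adjusted p = 0.000265), but the 2 deepest wells gave 89.3% of its counts. Without them the log2 difference was 1.65 and it was not called (adjusted p = 0.475). Defb6 (14 counts, log2 difference 2.75) lay only in those 2 wells, and Psapl1 (13 counts, 2.64) had 84.6% of its counts in 2 wells. Krt79 (chromosome 15, 101929332 to 101940324) had 123 counts or 7078 CPM, inside the range of the animals because of 9506 CPM (5 counts) in P57. Its log2 difference of 2.46 was not called (adjusted p = 0.209). Krt17 (65 counts) differed by 2.03 (adjusted p = 0.377) and Alox12e (34 counts) by 2.46 (adjusted p = 0.104), neither called. Of 13 list genes 6 were tested, and Cst6 and Defb6 were called higher. The latter entered the test through the plate alone. The list took 1.94% of the plate's counts (1.74 to 2.16%), above the 0.253 to 1.52% of the animals.

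Set beside the 108 ungated Krt79 wells, at a median of 844 counts, the plate's class (median 675) had Krt79 at 19382 CPM within 12255 to 75572 CPM. Apoe, the lipid carrier apolipoprotein E, had 7547 CPM (5484 to 10132) in the plate's Krt79 wells, below the 13110 to 55781 CPM of the 6 animals. It was low in other classes too, at 574 CPM beside 5818 and 6010 in the Cd74 wells of P60 and P758, and at 2277 beside 11105 to 12943 in Postn wells. Mitochondrially encoded genes had 15266 CPM (12260 to 18786) in those wells, above the 0 to 4790 CPM of the animals. The Cd74 wells had 10037 CPM of them beside 3243 and 4112, and the Postn wells 8197 beside 3851 to 4297, so that neither difference was limited to Krt79 wells. The ungated wells of a class are not matched on depth. Beside the matched wells, Apoe on the whole plate had 3741 CPM (2887 to 4768), below all 6 animals, as for 3.46% of the genes tested. Its interval includes P60 (3964) and P662 (4700), and its log2 difference of -0.73 was not called (adjusted p = 0.517, edgeR). Over the whole plate the 13 mitochondrially encoded genes took 1.20% of counts, above all 6 animals (0.190 to 1.02%). Of these genes 6 were tested and 0 called, with a median log2 difference of 0.82. The log2 ratio of their share to the median of the 3 deep animals was 0.42 with matched wells and 1.46 with unmatched ones.

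The 9 Postn wells were shallow, with 159 to 516 counts. Postn had 4, 7, 9, 3, 6, 3, 4, 3 and 10 counts in them from the deepest to the shallowest. Just outside the class, 2 wells had 2 counts of Postn. The other 16 outer bulge genes summed to at least 3 counts in each Postn well, with a median of 5. These were mainly Krt15, a keratin of bulge and basal cells, with 24 counts, and Col17a1, the hemidesmosomal collagen, with 22. Cd34, a surface marker of the mouse bulge, had 2 counts in 2 Postn wells and 3 on the whole plate. Lgr5 and Lhx2 had 1 count each there and Sox9 had 1. Such genes were not limited to wells with Postn: matched ungated wells without it had up to 51 counts of them. The 14 other fibroblast genes summed to 8 counts in the Postn wells and were at 0 in 6 of the 9. Col1a1, Col1a2 and Col3a1 were at 0 in them.

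Besides Postn, the leading genes of these wells against the rest of the plate were Itgb4, Krt5, Col17a1, Dst, Krt15, Ppm1n and Hey1. Itgb4, Col17a1 and Dst belong to the hemidesmosome, which anchors basal cells to the basement membrane. Krt5 had 32 counts in 8 wells, which is 14572 CPM beside 25652 to 33763 CPM in ungated Postn wells. Krt14 had 4098 CPM beside 10572 to 18215, and Postn 22313 beside 3428 to 9208. The ungated wells were deeper, with a median of 1366 counts against 224, so that a well needed a higher Postn level to enter the class on the plate. Hey1, a Notch target, and Ppm1n were among the leading genes of the unassigned wells as well. Over the whole plate Postn (chromosome 3, 54359267 to 54391041) had 56 counts or 3223 CPM, against 598 CPM in P60, 568 in P662, 920 in P758 and 0 in the others. Its log2 difference of 2.75 (SE 0.924) was not called (adjusted p = 0.0874, edgeR). The plate lay above all 6 animals, as it did for 11.6% of the genes tested. The outer bulge list took 1.38% of counts, within the 1.08 to 2.28% of the animals, and 0 of its 3 tested genes were called.

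Hmcn1 (chromosome 1, 150562500 to 150993652), which codes for the matrix protein hemicentin, was spread over many wells, as was Dennd4a. It had 14 counts in 10 wells, never more than 2 in one, against 4 in P60, 1 in P722, 4 in P758 and 0 in the others. The log2 difference was 3.01 (SE 0.796, adjusted p = 0.00888). Of the 14 counts 5 lay in Postn wells, 8 in unassigned wells and 0 in Cd74 wells.

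Basal keratins were low on the plate, without passing the test. Krt5 (chromosome 15, 101707069 to 101712905) had 62 counts where 238 would fall at the pooled level of the matched wells. It stood at 3568 CPM against 11105 in P662, the lowest animal, and 20913 in P57, the highest. Its log2 difference was -1.48 (SE 1.16, adjusted p = 0.749). Krt14 (chromosome 11, 100203162 to 100207510) had 22 counts, at 1266 CPM against 4440 in P722 and 14956 in P59, a log2 difference of -2.12 (SE 1.29, adjusted p = 0.572). For both genes the plate lay below all 6 animals, as it did for 3.46% of the genes tested. Krt15, by contrast, had 97 counts where 144 would fall and lay within the animals. Trp63, the p63 transcription factor of basal cells, had 3 counts where 19.6 would fall (log2 difference -2.20, adjusted p = 0.572). Of 18 basal genes 14 were tested, 0 were called, and 12 of the 14 differences were negative with a median of -1.04, beside 0.01 over all genes tested. The list took 2.20% of the plate's counts (1.99 to 2.43%) and 4.40 to 6.08% in the animals.

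Spinous genes lay within the animals as a list, at 0.915% (0.779 to 1.07%) against 0.540 to 4.04%, with 0 of 8 tested genes called. That place rests on P57 (0.760%, 4 counts) and P59 (0.540%, 13 counts). P60 (1.11%), P662 (3.69%), P722 (4.04%) and P758 (2.00%) lay above the plate's interval. Krt10 had 79 counts where 178 would fall (log2 difference -0.73, adjusted p = 0.901), and Krt1 had 11 where 97.5 would fall (-2.70, adjusted p = 0.416). Krt1 was called lower in the comparison with all ungated wells without matching, and in that with old animals alone. Of the 11 counts of Krt1, 10 lay in 2 of the 3 Krt10 wells. In the Krt79 wells, where Krt10 had 38 counts and Krt77 was also present, Krt1 had 0.

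Heat shock chaperones took 0.201% of counts (0.140 to 0.280%), below the 0.293 to 0.760% of the animals, with 0 of 4 tested genes called. Hspb1 had 0 counts where 6.01 would fall and Dnajb1 1 where 11.8 would fall, with adjusted p-values of 0.203 and 0.283. MHC class I genes, which nearly all cells carry, took 0.397% (0.309 to 0.502%) beside 0.415 to 2.28%. The plate's interval spans P60, the lowest animal, and P758 (0.477%). Their share was above the median of the 3 deep animals with wells of at least 500 counts, by 0.24 on the log2 scale. In the test 0 of 6 were called with a median log2 difference of -0.09. B2m, the light chain of class I, had 16 counts where 24.8 would fall.

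**Figure D5:**
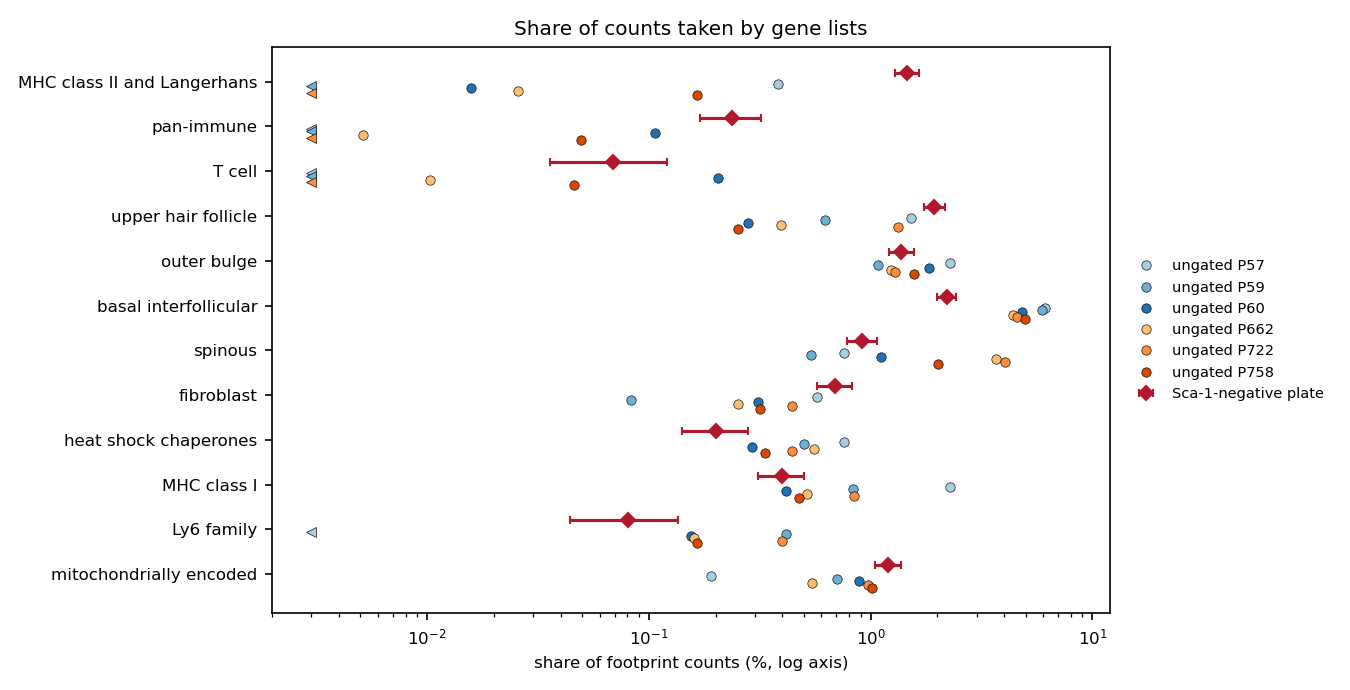
Share of footprint counts (%, log axis) taken by 12 gene lists on the Sca-1-negative plate (diamonds, exact 95% interval) and in the matched wells of each ungated animal (circles, with triangles at the left edge for 0 counts). The plate lies above all 6 animals for the MHC class II, pan-immune, upper hair follicle, fibroblast and mitochondrially encoded lists. It lies below all 6 for the basal, heat shock and MHC class I lists, the last with an interval that reaches P60 and P758. The fibroblast list includes Vim, Postn and Gsn.

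The 23 unassigned wells had 101 to 286 counts, and 7 of them had no keratin count. Besides the 4 wells with class II genes, 3 wells had 2 or more counts of the T cell list together with Ptprc. A well of 286 counts had 2 counts of Ptprc and 5 of the list from Cd3g, Cd3d, Thy1 and Nkg7. A well of 157 counts had 1 and 4, from Cd3e, Cd3g and Il2rb. A well of 173 counts had 2 and 2, from Cd3g and Trdc, the latter coding for the constant part of the delta chain of the gamma-delta T cell receptor. None of the 3 had a keratin count or a count of Cd74 or the class II chains. They gave 11 of the plate's 12 T cell list counts. The list took 0.0691% of counts, within the 0 to 0.204% of the animals, and none of its genes was tested. Trdv4, Xcl1 and Cd7 had 0 counts on the plate, and 3, 7 and 14 in the matched wells.

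Among the remaining 16 unassigned wells no rule marker passed 2 counts. A well of 251 counts had 5 of Cst6 with 1 each of Krt79, Krt17 and Alox12e. A well of 220 counts had 7 counts of Krt15, and one of 157 had 4. Counts of at least 5 from the basal list were found in 8 of the 23 wells. At this depth a basal or follicle cell can lack 3 counts of its marker: 31.9% of the matched ungated wells were unassigned too, from 0 of 3 wells in P57 to 62.5% in P59, beside 44.2% (30.5 to 58.7%) of the plate.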

How the data were processed

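The deposited files give whole-number counts of footprint reads per gene and well (22416 genes). Reads were processed by the authors with featureCounts, UMI-tools, STAR, Bowtie2 and fastp on GRCm38.p6, per the submitters' processing notes. The sources used here do not give versions, settings, filters on wells or the instrument of each plate. From these counts, wells of at least 100 counts were matched on total count (at most 0.5 on the log2 scale apart, deepest first, without reuse). Counts were summed per animal and tested with edgeR 4.0.16 in R 4.3.3 (TMM, filterByExpr, robust quasi-likelihood, Benjamini-Hochberg at 0.05). TMM factors ran from 0.632 to 2.97, the highest in P57. The biological coefficient of variation was 0.453, and 59 tested genes passed the filter only through the plate. DESeq2 1.42.0 was an alternative. Shares used scipy 1.17.1, and figures matplotlib 3.10.9. The test was checked on simulated counts, where it recovered no decrease. P-values measure only the spread between these samples. The 54 wells of the file and the totals of 11 plates were used, and the nuclease test plate was not analysed here.

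The members, markers and 25 gene lists were chosen with earlier results of these data known. Named genes were Ly6a, the 15 highest and 10 lowest called differences (at least 10 counts, outside all animals), up to 8 leading genes per class of wells, and list members. The other called genes and single wells were named after their values were seen. Of the symbols 21754 matched RefSeq's GRCm38.p6 table and 662 did not.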

Additional observations from a re-analysis of the deposited data

Results flagged for a closer look

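Each value here is 1 of the 6 ungated animals that stood far from the other 5, in 18 sets of shares compared. Chance gives about 1 such value in 20. The T cell list took 0.204% of the matched counts of P60. MHC class I genes took 2.28% of those of P57, which rests on 12 counts. Cd74 wells were 2.63% of the matched wells of P758. Krt79 wells were 33.3% of those of P57, which is 1 well of 3.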

How the results depend on the processing

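Fits without the 2 deepest wells, thinned to 100 counts, without the Cd74 wells, on totals without TMM factors, with the filter on summed counts (13 genes called higher), and on animals of at least 10000 matched counts were added after seeing the data. Genes called higher numbered 19 in the main test, 2 with no filter beyond 1 count, 4 with wells of at least 500 counts, 5 against old animals alone and 0 against young animals alone (edgeR, 8 at an unadjusted p under 0.05). They numbered 1 after thinning, 4 without Cd74 wells, 0 on the deep animals, 4 with DESeq2 and 5 to 21 when each animal was left out in turn. Genes called lower numbered 7 against all unmatched wells, and 1 each against old animals alone (Krt1) and without TMM factors (Serpinb2). Leaving out TMM factors moved the median difference of all genes from 0.01 to -0.23. None of the 19 called genes changed sign. The causes were not tested. Among uncalled genes, Krt10 was at 0.65 against young animals, and Krt15 at -0.17 to 0.36 when each animal was left out, 0.49 after thinning and 0.11 without Cd74 wells.

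Shares of wells, as plate minus ungated percentage points, moved as follows. With wells of at least 500 counts they were -2.50 for Ptprc alone, 2.50 for Postn, 42.5 for Krt79, 0 for Krt10, -65.0 for Krt5 and -2.50 unassigned, on 8 wells. After thinning Cd74 was at 5.77 and Krt5 at -20.0. Krt5 was at -41.9 with at least 2 counts. Against unmatched wells Ptprc alone was at -0.997, Krt10 at -16.7, Krt5 at -47.8 and unassigned at 34.2.

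As log2 ratios to the median of the 3 deep animals, the upper hair follicle list was at 3.50 with wells of at least 500 counts, 2.11 unmatched, 1.87 without the 2 deepest wells and 1.44 as a mean over wells. The basal list was at -1.85, -1.26, -0.90 and -0.69 in the same settings. The outer bulge list turned to 0.15 as a mean over wells, and the MHC class I list to 0.24 with wells of at least 500 counts. No paired analysis was possible because the plate is 1 sample, so that it shares fewer than 2 replicate numbers with the ungated plates. Depth limits every statement on a low gene: 3 counts on the plate are 173 CPM.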

Other observations

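Some genes were high in the matched wells of P60 and P758 and lower on the Sca-1-negative plate and in the other 4 animals, among which the plate had no fixed place. Eif2a, an initiation factor that delivers tRNA, had 5379 CPM in the matched wells of P60 and 5192 in those of P758, but 103 in P662, 415 in P59 and 460 on the plate. Vav1, an exchange factor of blood cells, had 1824 and 2530 CPM in P60 and P758, 155 in P662 and 230 on the plate. Grk3 had 1510 and 1446 CPM in P60 and P758, 362 in P662 and 173 on the plate. Plekhg4 had 1510 and 2990 CPM in P60 and P758, 51.6 in P662 and 345 on the plate. None of these genes was called, and all were chosen after their values were seen.

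Against all 1906 ungated wells without a match on depth, the test called 29 genes, of which 13 were among the 19 of the matched comparison. Cd207, too low for the matched test, was called higher there, as were Postn and Macf1. Serpinb2, Clca2, Clca3a2, Perp, Gja1, Itm2b and Krt1 were called lower. In the matched wells Serpinb2 had 0 counts on the plate where 9.61 would fall, and Clca2 had 0 where 8.01 would fall.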
